A study of Homo sapiens with 21 samples.

Results

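The regions described here are distal binding regions of estrogen receptor beta (ER-beta) that hold at least 1 receptor half-site, the hexamer AGGTCA, and no full palindrome. They were chosen from the list of regions enriched after estradiol by position and sequence alone. The summit, the base of highest signal in a region, had to lie outside promoters (1000 bp upstream to 100 bp downstream of a transcription start site, TSS, of a protein-coding gene) and outside exons. The window of 100 bp on each side of it had to hold AGGTCA on either strand. That window could hold no estrogen response element (ERE) with 2 or fewer mismatches and no AP-1 element. In 54 members a palindrome crossed the edge of the window, which the rule did not set aside. Of 26861 estradiol regions, 20641 were distal, 10580 of these held a half-site, 4350 of those held no ERE, and 3516 also held no AP-1 element. These 3516 half-site regions were 13.1% of the list and 17% of its distal regions (95% Wilson interval 16.5 to 17.5). All intervals on shares are of this kind and cover counting error only.

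Chromatin immunoprecipitation with sequencing (ChIP-seq) was done in MDA-MB-231-ER-beta cells, a line of triple-negative breast cancer with a doxycycline-switched transgene for Flag-tagged ER-beta, and the tagged receptor was recovered with the Flag antibody M2. All groups received doxycycline at 100 ng/ml for 24 h and then, for 3 h, ethanol vehicle, 1 nM estradiol or LY500307, an agonist selective for ER-beta. For LY500307 the titles give 1 nM and the characteristics 10 nM, so its dose is uncertain. Each of the 3 treatments has 4 ChIP and 3 input libraries by the labels, while the protocol speaks of triplicates, and 1 list of enriched regions per treatment was used here. It was read as a pool of libraries, which the sources used here do not state. There is therefore no replicate error, and no difference between lists or region classes was tested. The fold of a region is the authors' own value, its signal over background, and the -log10 q is that of the authors' peak caller. The lists were made separately, each against its own background, so folds from different lists stand side by side and do not measure a change. The lists hold no read totals, so depth is unknown, and they hold no expression, so the cell line could not be checked against its markers. The introduced receptor is tagged and made on demand, which limits these cells as a model of native ER-beta. All positions are hg38, counted from 1, on the plus strand.

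Estrogen receptors bind DNA as dimers, each partner reading a half-site, and the classical ERE is a pair of half-sites that point toward each other with a short spacer. Other nuclear receptors read the same hexamer in other arrangements: retinoic acid, thyroid hormone and vitamin D receptors on direct repeats, and the estrogen-related receptors (ERRs) and SF1 as monomers on a half-site extended by TCA in front, TCAAGGTCA. AP-1 elements are bound by FOS and JUN proteins, to which estrogen receptors can be tethered without reading DNA themselves. The ERE searched here was GGTCA, 3 bases of any kind, then TGACC, with mismatches counted over the 10 fixed bases. The AP-1 element was TGACTCA or TGAGTCA. Both strands were read for every motif, and a match is a description of the letters only.

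The first set of sequences shows members with a single half-site that were among the 10 with the highest -log10 q, followed by members that were in no other list. Capitals mark the half-sites, which read AGGTCA on the plus strand or TGACCT when they lie on the other strand.
ABHD5, chr3:43770133-43770178: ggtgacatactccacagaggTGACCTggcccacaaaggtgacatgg
SCARB1, chr12:124745909-124745954: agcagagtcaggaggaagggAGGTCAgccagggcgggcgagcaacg
MRPS22, chr3:139301234-139301279: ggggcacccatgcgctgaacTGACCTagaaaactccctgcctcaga
ZSWIM6, chr5:61323072-61323117: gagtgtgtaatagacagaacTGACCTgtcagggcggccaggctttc
CCDC71L, chr7:106535903-106535948: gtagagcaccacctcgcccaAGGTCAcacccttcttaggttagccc

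The second set shows paired half-sites. RASSF3, TMEM196 and BAHCC1 carry the overlapping direct repeat, in which the last base of one half-site is the first of the next. HSD17B2 and RPLP1 carry the everted pair, half-sites pointing away from each other, with 5 bases between. MRPL33 carries an everted pair with no base between, and EPCAM a direct pair with 3 bases between beside an extended half-site. RASSF3, TMEM196, BAHCC1 and RPLP1 were chosen after their values were seen.
RASSF3, chr12:64611183-64611233: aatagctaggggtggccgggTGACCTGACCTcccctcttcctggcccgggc
TMEM196, chr7:19944925-19944975: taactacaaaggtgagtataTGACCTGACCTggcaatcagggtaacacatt
BAHCC1, chr17:81401792-81401842: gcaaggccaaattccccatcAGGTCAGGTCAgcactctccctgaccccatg
HSD17B2, chr16:82084109-82084165: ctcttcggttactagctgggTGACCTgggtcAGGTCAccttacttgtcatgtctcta
RPLP1, chr15:69759325-69759438: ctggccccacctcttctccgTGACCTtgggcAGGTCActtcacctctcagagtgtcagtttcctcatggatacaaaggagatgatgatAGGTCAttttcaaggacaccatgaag
MRPL33, chr2:27800603-27800694: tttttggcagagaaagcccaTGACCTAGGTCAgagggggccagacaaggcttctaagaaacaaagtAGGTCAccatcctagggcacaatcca
EPCAM, chr2:47273286-47273392: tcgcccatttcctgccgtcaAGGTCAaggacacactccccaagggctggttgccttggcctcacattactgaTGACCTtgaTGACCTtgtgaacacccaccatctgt

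The third set shows members with 4 or more half-sites, and is printed so that their arrangement can be read. All but YPEL1 have them on 1 strand.
NTNG2, chr9:132134275-132134475: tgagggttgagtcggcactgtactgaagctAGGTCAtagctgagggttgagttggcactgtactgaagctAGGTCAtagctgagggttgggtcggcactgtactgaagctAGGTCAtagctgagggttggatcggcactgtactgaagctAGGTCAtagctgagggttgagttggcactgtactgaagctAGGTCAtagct
OSTF1, chr9:75101133-75101333: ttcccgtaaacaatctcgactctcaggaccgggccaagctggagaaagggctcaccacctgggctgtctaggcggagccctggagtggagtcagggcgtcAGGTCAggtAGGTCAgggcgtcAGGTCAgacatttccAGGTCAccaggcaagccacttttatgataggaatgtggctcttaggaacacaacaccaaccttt
MED10, chr5:6396916-6397116: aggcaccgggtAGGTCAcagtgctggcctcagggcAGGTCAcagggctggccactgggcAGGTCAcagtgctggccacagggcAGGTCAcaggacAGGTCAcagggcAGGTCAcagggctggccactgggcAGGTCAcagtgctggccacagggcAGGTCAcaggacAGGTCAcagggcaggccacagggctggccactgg
APCDD1, chr18:10193941-10194141: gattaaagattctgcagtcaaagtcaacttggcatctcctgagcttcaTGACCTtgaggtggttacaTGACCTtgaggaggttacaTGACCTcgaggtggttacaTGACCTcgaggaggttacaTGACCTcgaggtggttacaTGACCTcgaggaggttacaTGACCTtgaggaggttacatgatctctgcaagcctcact
SIPA1L3, chr19:38196418-38196618: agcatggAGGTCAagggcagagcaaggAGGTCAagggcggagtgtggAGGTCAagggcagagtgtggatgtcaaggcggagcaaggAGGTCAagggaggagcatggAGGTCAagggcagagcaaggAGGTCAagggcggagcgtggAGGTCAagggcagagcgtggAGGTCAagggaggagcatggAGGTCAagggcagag
YPEL1, chr22:21709752-21709952: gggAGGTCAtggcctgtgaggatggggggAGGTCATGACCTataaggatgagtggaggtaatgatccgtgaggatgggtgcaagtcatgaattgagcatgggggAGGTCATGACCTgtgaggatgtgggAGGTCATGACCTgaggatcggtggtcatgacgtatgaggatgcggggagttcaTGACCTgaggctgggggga

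The fourth set shows members near estrogen response genes (GREB1, RARA, CTSD) and near ERR target genes of energy metabolism (PDK4, CPT1A, IDH3A).
GREB1, chr2:11618128-11618237: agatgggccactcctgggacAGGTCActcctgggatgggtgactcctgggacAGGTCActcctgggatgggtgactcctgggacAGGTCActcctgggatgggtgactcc
RARA, chr17:40339490-40339547: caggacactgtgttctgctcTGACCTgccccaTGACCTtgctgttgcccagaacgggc
CTSD, chr11:1773592-1773694: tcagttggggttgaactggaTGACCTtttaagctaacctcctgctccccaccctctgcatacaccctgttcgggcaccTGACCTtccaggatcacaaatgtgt
PDK4, chr7:95599354-95599460: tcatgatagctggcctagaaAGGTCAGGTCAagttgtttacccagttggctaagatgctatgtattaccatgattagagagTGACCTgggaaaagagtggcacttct
CPT1A, chr11:68843934-68843979: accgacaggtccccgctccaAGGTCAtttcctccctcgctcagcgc
IDH3A, chr15:78149644-78149689: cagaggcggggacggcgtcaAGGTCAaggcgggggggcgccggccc

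The first question was whether half-sites gathered at distal summits once regions with an ERE or AP-1 element were set aside. They did so in all 3 lists, and the share was largest with estradiol. A half-site was at 41.4% of such estradiol windows (40.3 to 42.4, of 8501), against 13.7% (13.2 to 14.2) of windows of equal width 2000 bp downstream and 14.2% (13.7 to 14.7) of windows 2000 bp upstream. With LY500307 it was at 36.7% (35.1 to 38.3, of 3387), against 14.2% and 14%. With vehicle it was at 24.1% (21.6 to 26.7, of 1071), against 14.2% and 13.4%. The intervals of summit and control windows did not overlap in any list. Over all 26861 estradiol windows, promoters and exons included, 44.7% held a half-site, 44.6% an ERE with 2 or fewer mismatches and 13.8% an AP-1 element.

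**Figure D1:**
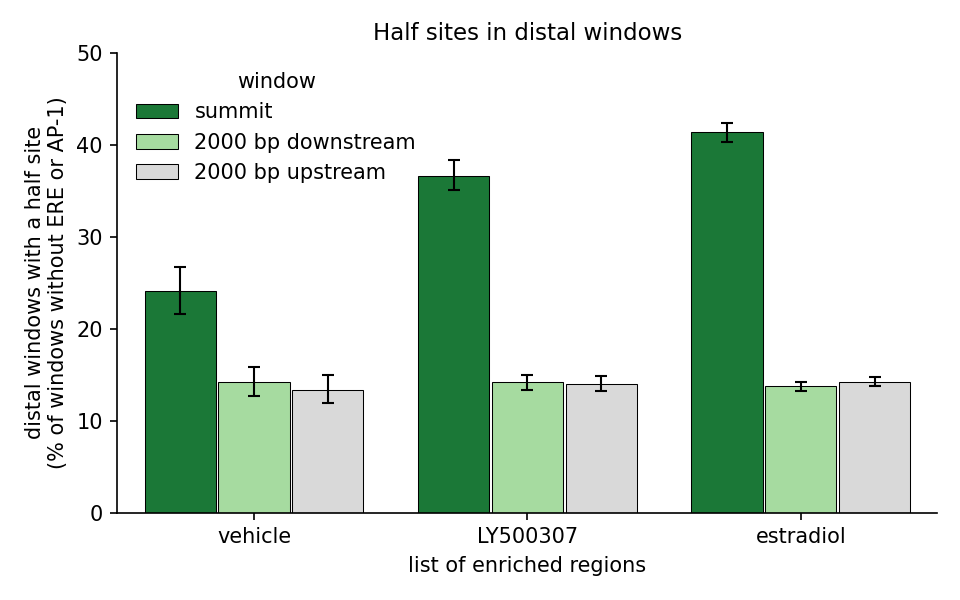
Share of distal windows with a half-site, among windows without an ERE or AP-1 element, for the vehicle, LY500307 and estradiol lists (bars, percent from 0, with 95% Wilson intervals). Dark bars are windows at the summit and pale bars are windows 2000 bp to either side. The summit bars reach 24.1%, 36.7% and 41.4%, and all control bars lie near 14%.

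The share also moved with the strength of the region. In the lowest decile of estradiol -log10 q among distal regions, 300 of 1312 windows without ERE or AP-1 held a half-site (22.9%, 20.7 to 25.2). In the fifth decile the share was 45.8% (42.5 to 49.2), and in the highest it was 54.8% (50.7 to 58.9). As a part of all distal regions, however, the half-site class was nearly level, at 15.6% in the lowest decile, 19.1% in the fourth and 15.1% in the highest, because ERE regions rose from 24.5% to 65.0%. Windows with none of the 3 elements fell from 52.7% to 12.4% over the same deciles.

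Half-sites lay close to the summit. The 3516 members held 4632 half-sites, whose centres were a median of 28.5 bp from the summit, against 49.5 bp from the window centre in both sets of control windows that met the same sequence rule (2523 downstream, 2608 upstream). Within 20 bp of the summit lay 37.5% of them (36.1 to 38.9), against 21.5% downstream and 20.7% upstream. Within 50 bp lay 73.2%, against 50.4% and 50.8%. Around the same summits, AGGTCA occurred 6.61 times per 1000 bases within 100 bp, where the rule asked for it, 0.994 times at 100 to 200 bp and 0.838 times at 200 to 500 bp, where it did not. In members of the highest quartile of -log10 q, 41.8% of half-sites (39.0 to 44.7) were within 20 bp, against 32.4% (29.6 to 35.3) in the lowest. Members whose only half-site was centred within 25 bp of the summit had a median fold of 11.1 (n = 1255), and those with it 75 to 100 bp away had 8.49 (n = 280).

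**Figure D2:**
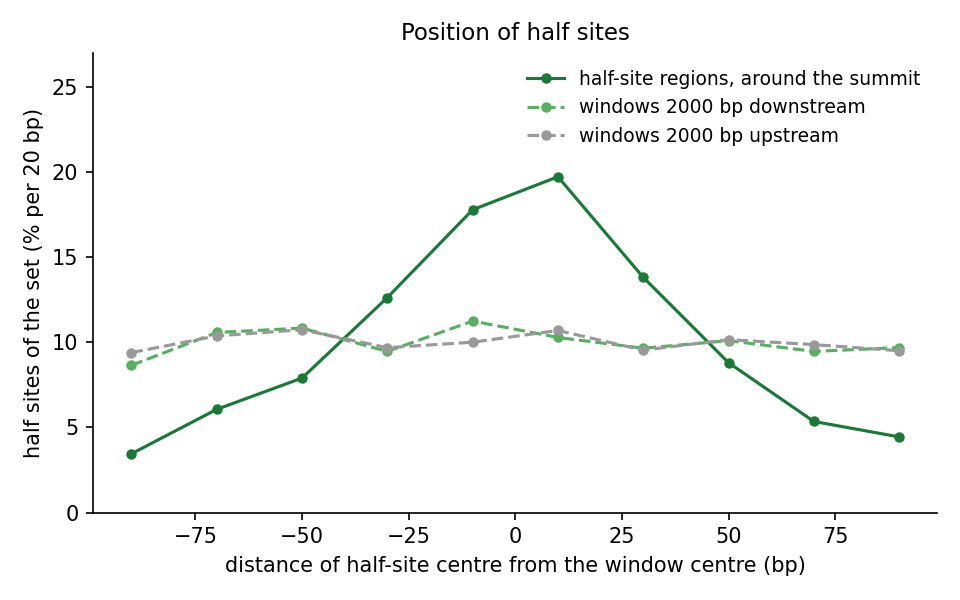
Position of half-site centres relative to the summit (members, solid line) or to the window centre (control windows 2000 bp away, broken lines), as percent of each set's half-sites per 20 bp. Members rise to 19.7% in the bin just after the summit and fall to 3.45% at one edge, while control windows stay between 8.65% and 11.2%.

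Most members held a single half-site, but pairs and larger groups were more frequent than in control windows. Of 3516 members, 2639 held 1, 719 held 2, 120 held 3 and 38 held 4 or more, with 9 as the most. At least 2 were present in 24.9% (23.5 to 26.4), against 6.34% (5.46 to 7.36) downstream and 5.25% (4.46 to 6.18) upstream. The estradiol fold was highest in the members with 4 or more: the median was 10.2 with 1, 11.4 with 2, 11.2 with 3 and 15.2 with 4 or more. The quartiles overlapped widely, at 7.0 to 19.8 for 1 half-site and 9.61 to 39.4 for 4 or more.

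Where half-sites were many, they mostly lay on 1 strand, as the third set of sequences shows. Of the 38 members with 4 or more, 27 had all of them on 1 strand. In 8 of these every distance from one half-site to the next was the same within 2 bases, with a unit of 19 to 42 bases, and 5 of the 8 overlapped an LY500307 region. Allowing 1 distance to differ gave 20 members, of which 13 overlapped one. Only 1 downstream and 1 upstream control window held 4 or more half-sites. The downstream window met both definitions and the upstream window neither, so they are too few for a comparison of even spacing. How reads from near-identical copies of a repeat were placed is not given in the sources used here.

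The region 27.7 kb from NTNG2, the gene of an axon guidance protein, had the highest -log10 q of all members, 802.1. It held 5 half-sites, each followed by the next after 40 bases, and its fold was 175.2 in the estradiol list, 142.6 in that of LY500307 and 69.7 in that of vehicle. It was high in all 3 lists. A region in an intron of OSTF1, an adapter protein gene (chr9:75100927-75101516), held 4 half-sites on 1 strand with 3, 7 and 9 bases between them. Its estradiol fold, 179.0, was the highest of all members, and its folds were 79.0 with LY500307 and 21.5 with vehicle. MED10, a Mediator subunit gene, had a region 18.5 kb away with 9 half-sites on 1 strand, spaced by 18 or 6 bases. The folds there were 50.9 with estradiol and 16.5 with LY500307, with no vehicle region. In a region 260.6 kb from APCDD1, which encodes an inhibitor of Wnt signalling, 7 half-sites recurred every 19 bases, and the folds were 41.6 with estradiol and 21.4 with LY500307. The intronic SIPA1L3 region also held 9 half-sites, with an estradiol fold of 26 and an LY500307 fold of 8.50. The intronic YPEL1 region, by contrast, held 8 half-sites on both strands, among them 3 inverted pairs with no base between. Its estradiol fold was 58.5, its LY500307 fold 22.6 and its vehicle fold 6.55. The intronic PTPRN2 region also held 8 half-sites, all on 1 strand and unevenly spaced, and its folds were 9.49 with estradiol, 6.15 with LY500307 and 5.76 in the vehicle list.

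Orientation and spacing were described for the closest pair of each of the 877 members with 2 or more half-sites. It was direct in 493 (56.2%), everted in 224 (25.5%) and inverted in 160 (18.2%). In control windows with 2 or more, direct pairs were 56.2% downstream (90 of 160) and 68.6% upstream (94 of 137). The half-sites of the members' closest pair were a median of 27 bases apart, against 57.5 and 51 bases. A pair up to 10 bases apart was in 6.09% of members, against 0.991% and 0.805% of control windows. Since the rule set aside palindromes with 3 bases between, inverted pairs are an incomplete set. The folds of members did not sort by the orientation of the pair: the median was 11.6 for direct, 10.1 for inverted and 12.4 for everted pairs.

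A few spacings stood above their neighbours. The overlapping direct repeat was in 50 members (1.42%) and in 0 control windows on either side. It was in 107 of all 26861 estradiol windows (0.398%), but only 12007 of those windows held a half-site, as every member does by the rule. Everted pairs with 5 bases between were in 24 members (0.683%), with 6 members at 4 bases and 4 members at 6 bases, and in 1 control window on each side. Direct repeats with 4 bases between were in 15 members against 4 and 2 control windows. Those with 3 bases between, in 12 members against 0 and 1, did not stand out. Direct repeats with 8 bases between were in 13 members, also against 0 and 1. Direct repeats with 23 bases between were in 20 members against 1 on each side. The other spacings from 0 to 30 bases had up to 13 members each, so their shares are imprecise, and the peaks were picked out after the counts were seen.

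**Figure D3:**
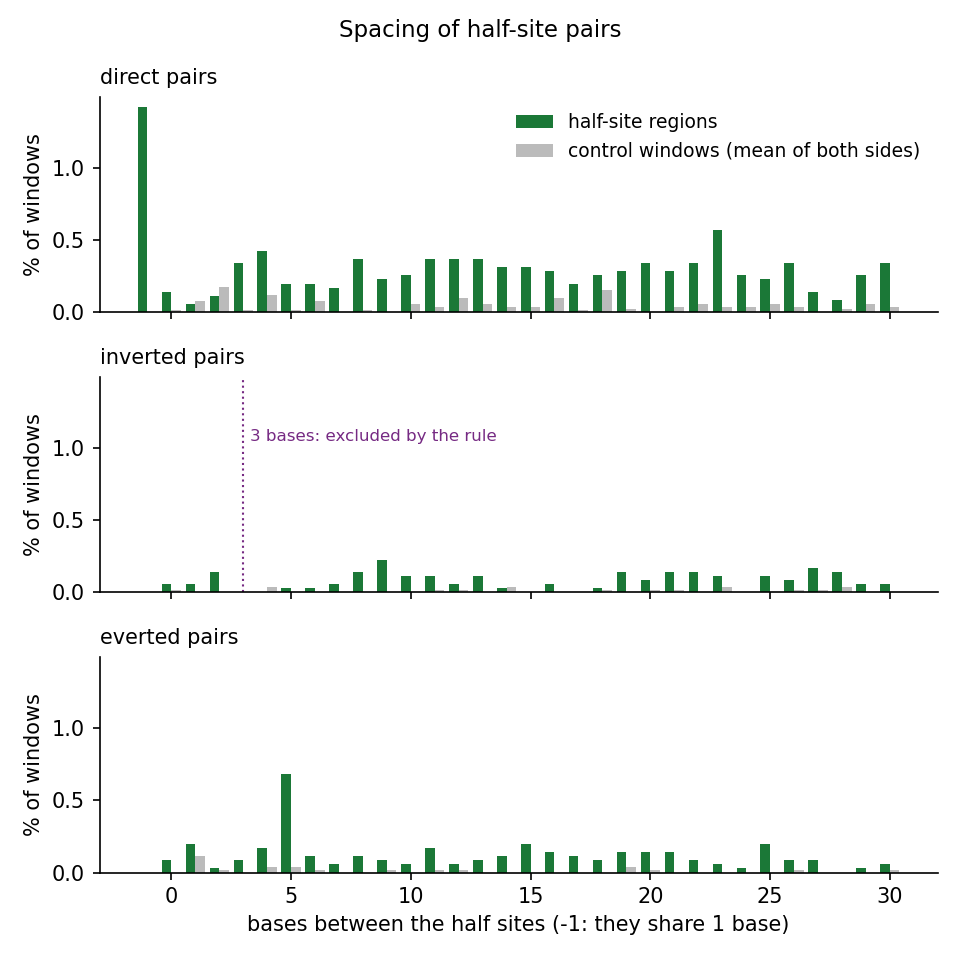
Percent of windows that hold a pair of half-sites at each number of bases between them, for direct, inverted and everted pairs (-1 means that the half-sites share a base). Green bars are members and grey bars the mean of the control windows on both sides. The overlapping direct repeat (1.42%) and the everted pair at 5 bases (0.683%) stand above the other spacings.

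The overlapping direct repeat and the everted pair at 5 bases did not stand out by strength. The 50 members with the former had a median fold of 10.2, and 30.0% (19.1 to 43.8) overlapped an LY500307 region. The 24 with the latter had a median fold of 13.5, and 29.2% (14.9 to 49.2) overlapped one. Both intervals include the 32.7% of all members. Among the 24 everted pairs, a G stood directly before the left half-site in 19 and a C directly after the right one in 13. The strongest overlapping repeat was in an intron of RASSF3, a Ras-association domain gene (chr12:64610809-64611569), with an estradiol fold of 152.8, an LY500307 fold of 77.1 and a vehicle fold of 18.6. The strongest everted pair at 5 bases was in an intron of HSD17B2, which encodes the enzyme that converts estradiol to estrone (chr16:82083881-82084453). Its folds were 116.6, 24.6 and 17 in that order.

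Partners with a single mismatch were also above control windows at the everted spacing of 5 bases, though not at that spacing alone. A hexamer with 1 mismatch stood everted at 5 bases from 110 of the 4632 half-sites (2.38%), against 0.446% downstream and 0.943% upstream. The members' values at 4 and 6 bases were 1.55% and 1.06%. The remaining resemblance to an ERE was also above that of control windows. The best palindrome of a member had 3 mismatches in 2896 windows (82.4%, 81.1 to 83.6), against 64.6% downstream and 64.6% upstream, in windows that all held a half-site. Members more often held 2 or more half-sites (24.9%, against 6.34% and 5.25%), and the comparison was not matched for this number. The threshold of 2 mismatches cut through a gradual series of folds and overlaps. Distal regions with a half-site, no AP-1 element and a best palindrome of 2 mismatches, just outside the rule (n = 3188), had a median fold of 13.3. Members just inside it, with 3 mismatches, had 11.2, and the 620 members with 4 or more had 8.64. Overlap with the LY500307 list was 38.5%, 34.7% and 23.2% in these sets. At the other edge of the rule, members whose nearest half-site was centred at least 80 bp from the summit (n = 205) had a median fold of 8.4. Distal regions with their only half-site in the next 20 bp (n = 199) had 7.66.

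The extended half-site TCAAGGTCA was found in 111 members (3.16%, 2.63 to 3.79), against 1.31% (0.933 to 1.83) downstream and 1.96% (1.49 to 2.56) upstream. It was in 478 of all 26861 estradiol windows (1.78%). Only 12007 of those windows held AGGTCA, which every member holds by the rule, so this share is no like comparison. Counted per half-site, the extension was present at 2.55% (2.13 to 3.04) in members, 1.23% downstream and 1.85% (1.41 to 2.43) upstream, so the intervals of members and upstream windows overlapped. Members with it had a median fold of 9.68, and 31 of the 111 overlapped an LY500307 region (27.9%, 20.4 to 36.9). The strongest was 71.8 kb from EPCAM, an epithelial adhesion gene (chr2:47272844-47273601), with an estradiol fold of 110.9, an LY500307 fold of 23.8 and a vehicle fold of 5.94. Without the windows of the repeat context described next, it was in 3.21% of members (2.67 to 3.85) and 2.49% of upstream windows (1.90 to 3.25), and these intervals overlapped too.

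Half-sites of control windows often stood in 1 fixed context, which members seldom showed. The commonest context in both control sets was acctgAGGTCAggagt, shown with the half-site in capitals, which as background is part of the consensus of Alu repeats. With up to 3 mismatches in its other 10 bases, it was in 22.2% of downstream and 21.3% of upstream windows and in 2.53% (2.06 to 3.11) of members. The 89 members that had it showed a median fold of 8.79, and 20.2% of them (13.2 to 29.7) overlapped an LY500307 region. Without such windows, 2 or more half-sites were present in 24.7% of members, 6.83% of downstream and 5.56% of upstream windows. With such half-sites not counted, the share of windows with a half-site was 40.7% at the summits and 10.8% downstream.

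The members were then followed across the 3 lists. Of 3516 members, 1150 overlapped an LY500307 region (32.7%, 31.2 to 34.3), and the background over all estradiol regions was 33.8%. A vehicle region overlapped 219 members (6.23%, 5.48 to 7.08), and the background was 9.26%. The LY500307 share was thus near the background and the vehicle share below it. All 3 lists held 211 members (6.0%), 939 were shared with LY500307 alone (26.7%), 8 with vehicle alone, and 2358 were in no other list (67.1%, 65.5 to 68.6). Of all estradiol regions 64.9% were in no other list, and of distal ones 64.1%.

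Membership in several lists went with a high estradiol fold. The median estradiol fold was 85.0 for members in all 3 lists (quartiles 58.9 and 116.6), 26.8 for those shared with LY500307 alone (17.6 and 39.8) and 8.16 for those in no other list (6.49 and 11.4). In their own lists, the members found in all 3 had median folds of 30.7 with LY500307 and 8.41 with vehicle, and those shared with LY500307 alone had 8.50 there. Over all members the fold ran from 3.19 to 179.0, with quartiles of 7.07, 10.5 and 20.6.

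**Figure D4:**
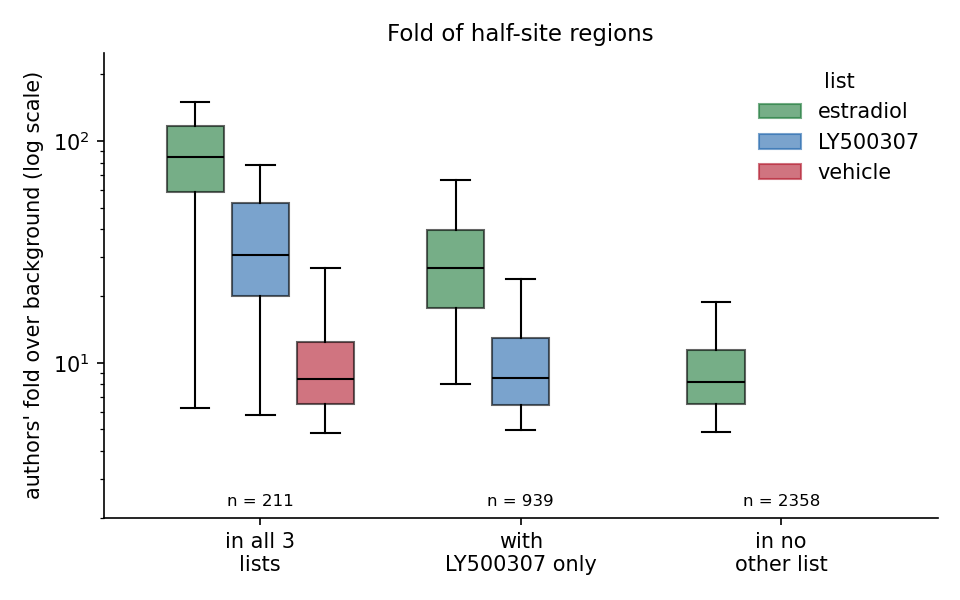
Authors' fold over background (log scale) of the half-site regions in each list, for 211 members in all 3 lists, 939 shared with LY500307 alone and 2358 in no other list. Boxes give the quartiles and median, whiskers the 5th and 95th percentiles, and the lists were made separately. The estradiol medians are 85.0, 26.8 and 8.16. The 8 members shared with vehicle alone are not drawn.

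Where regions overlapped, their summits mostly lay close together across the lists. Where a member met an LY500307 region, the summits were a median of 15 bp apart, and the rule held at the LY500307 summit too in 1062 of 1150 cases (92.3%, 90.7 to 93.8). For vehicle the median was 16 bp and the rule held in 190 of 219 (86.8%, 81.6 to 90.6). The summits were within 50 bp of each other in 89.5% of the LY500307 cases and 81.3% of the vehicle cases. Windows this close share most of their bases, so these shares follow largely from the overlap and are no separate evidence. Read the other way, the rule chose 1242 LY500307 regions, 15.5% (14.7 to 16.3) of its 8017 distal regions, and 1180 of them (95%, 93.7 to 96.1) overlapped an estradiol region, against a background of 91.9% of all LY500307 regions. It chose 258 vehicle regions, 12.2% (10.9 to 13.7) of 2117, and 229 (88.8%, 84.3 to 92.1) overlapped one, against 87% of all vehicle regions. The vehicle share was near its background. The 62 LY500307 regions outside the estradiol list had folds of up to 9.21, and the 29 vehicle regions up to 8.24.

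Compared with the other distal classes, the half-site regions were weaker than ERE regions and stronger than regions with none of the elements. The median estradiol fold was 10.5 for half-site regions, 13.2 for 10334 ERE regions, 11.2 for 1806 AP-1 regions without an ERE and 7.59 for 4985 regions with none. Overlap with LY500307 was 32.7%, 38.5%, 32.4% and 31.1% in this order, and overlap with vehicle 6.23%, 9.07%, 5.20% and 11.3%. Since strength and overlap went together, the shares were also read within quartiles of the estradiol -log10 q of distal regions. In the highest quartile 94.6% of half-site regions (92.8 to 96.0) and 93.7% of ERE regions (92.8 to 94.5) overlapped LY500307. In the same quartile 21.8% of half-site regions (19.1 to 24.8) overlapped vehicle, against 27.5% of ERE regions (26 to 29.1), 19% of AP-1 regions (15.6 to 22.9) and 24.1% of regions with none (21.1 to 27.5). In the lowest quartile, 1.94% of half-site regions (1.19 to 3.12) overlapped vehicle, against 0.632% of ERE regions (0.353 to 1.13), 0.713% of AP-1 regions (0.243 to 2.07) and 10.7% (9.49 to 12.1) of regions with none of the elements. Overlap with LY500307 in that quartile was 5.08% (3.78 to 6.79), 1.90% (1.35 to 2.65), 1.43% (0.655 to 3.07) and 15.9% (14.4 to 17.5) in this order. Among these weak sites the values of the half-site regions lay between those of the ERE and AP-1 regions and those of the regions with none. None of these differences was tested, for want of replicate lists.

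**Figure D5:**
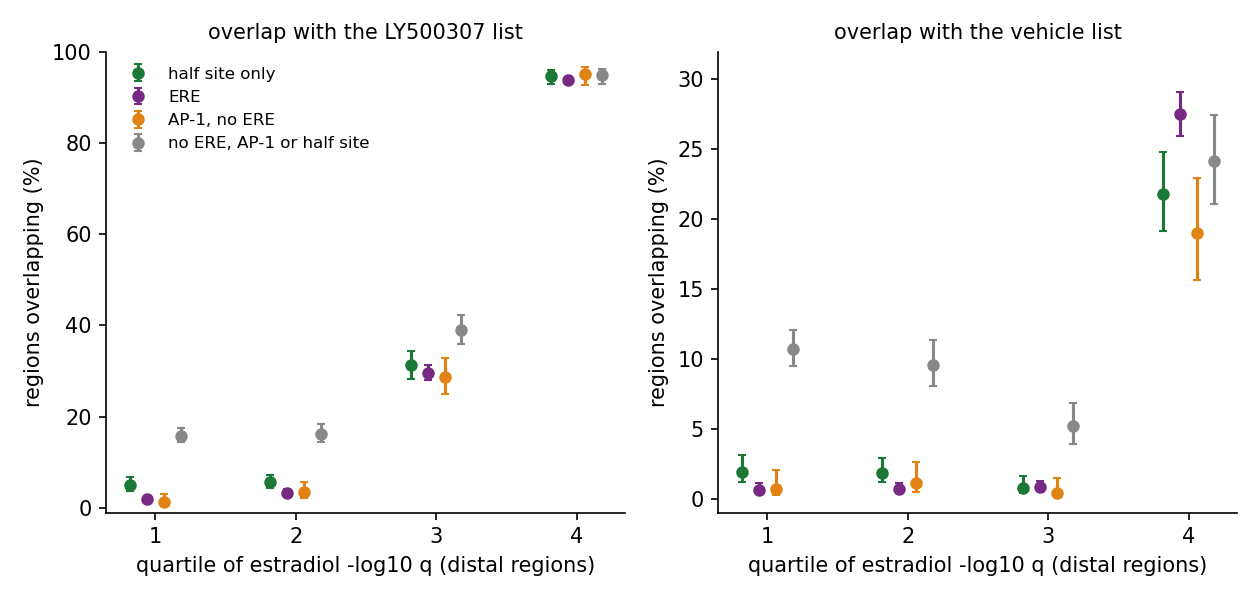
Percent of distal estradiol regions that overlap an LY500307 region (left) or a vehicle region (right), by quartile of the estradiol -log10 q and sequence class, with 95% Wilson intervals. The 2 panels have different vertical scales. In the highest quartile 94.6% of half-site regions overlap LY500307 and 21.8% overlap vehicle, and in the lowest quartile 1.94% overlap vehicle.

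Overlap with both other lists was highest in the small group with 4 or more half-sites. Overlap with LY500307 was 31.8% (30.1 to 33.6) for members with 1 half-site, 33.9% (30.6 to 37.5) with 2, 37.5% (29.4 to 46.4) with 3 and 55.3% (39.7 to 69.8) with 4 or more. Overlap with vehicle was 6.06%, 5.84%, 8.33% and 18.4% (9.22 to 33.4). The intervals for 1, 2 and 3 half-sites overlapped in both lists. Those for 3 and for 4 or more overlapped too, with 4.59 to 14.7 for 3 half-sites in the vehicle list. The group with 4 or more also had the highest median fold, 15.2, and the comparison was not matched for fold.

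The members with the highest -log10 q recurred in all 3 lists. ABHD5, whose product activates triglyceride breakdown, had a region 52.4 kb away whose estradiol fold was 153.6, LY500307 fold 116.2 and vehicle fold 59.5. A region 63.3 kb from BMAL1, a core gene of the circadian clock, showed 172.7, 106.9 and 38.2 in these lists. One 71.7 kb from SCARB1, the gene of the high-density lipoprotein receptor, had 171.2, 70.3 and 15.5. ABHD5 and SCARB1 had a single half-site in the window, and BMAL1 had 2, with 79 bases between. MRPS22, a mitochondrial ribosomal protein gene, had a region 18.6 kb away with 163.5, 110.5 and 52.5, and TNFRSF1B, the gene of a tumour necrosis factor receptor, one 18.5 kb away with 160.0, 71.9 and 40.7. The region nearest to SPAG9, a scaffold protein of JNK signalling, had 136.8, 98.3 and 17.6. BMP1, which encodes a procollagen protease, had an intronic region with 161.7, 95.9 and 32.6, and SPTBN1, a spectrin gene, an intronic region with 155.0, 64.3 and 10.6. These regions were chosen for their estradiol -log10 q and the lists were made separately, so the order of their folds is no comparison of treatments. A nearest gene is a matter of distance and was not tested as a target.

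The strongest members in no other list all had 1 half-site. Their estradiol folds were 40.5 in the region nearest to DUSP4, a phosphatase that inactivates MAP kinases, 38.5 near ZSWIM6, 39.5 in an intron of RGS9, a regulator of G-protein signalling, 34.7 in the region nearest to CCDC71L and 33.1 near MYO15B. ZSWIM6 and MYO15B lay 9.15 kb and 9.86 kb from the region, while DUSP4 and CCDC71L lay 240.6 kb and 125.2 kb away. These folds were above the median of members shared with LY500307 alone, 26.8.

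The gene lists gave few members. A member within 20 kb of a TSS was present at 1854 of 19663 protein-coding genes, a background of 9.43%. Of 26 estrogen response genes 7 had one (26.9%, 13.7 to 46.1), of 14 ERR target genes of energy metabolism 5 did (35.7%, 16.3 to 61.2), and of 27 nuclear receptor genes 1 did (3.70%, 0.657 to 18.3). Any estradiol region was near 18, 9 and 16 genes of these lists, against a background of 55.2% of all protein-coding genes. RARA, itself a nuclear receptor gene, was counted with the estrogen response genes alone. The list of ERR target genes, named for energy metabolism, also held ERBB2, a receptor kinase gene, which had no member within 20 kb. The lists are short and were chosen with earlier results known, so these counts are a description.

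Among estrogen response genes, RARA, which encodes retinoic acid receptor alpha, had an intronic member (chr17:40339305-40339722) with 2 direct half-sites 6 bases apart. Its folds were 42.0 with estradiol and 9.84 with LY500307. CCND1, the gene of cyclin D1, had a member 13.3 kb away with folds of 19.3 and 6.57, and CTSD, the gene of the lysosomal protease cathepsin D, one 9.02 kb away with 15.5 and 5.70. These 3 were the members of the list that LY500307 also gave, and none had a vehicle region. GREB1, which encodes a coactivator of the receptors, had a member in an intron with 3 half-sites on 1 strand, with 26 bases between each, and a fold of 8.04 with estradiol alone. IGF1R, which encodes a growth factor receptor, IGFBP4, whose product binds insulin-like growth factors, and SGK3, a kinase gene, had estradiol folds of 9.56, 8.0 and 5.60 and no region in the other lists. The SGK3 member lay 0.342 kb from the TSS, just beyond the promoter as the rule sets it.

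Of the members near ERR target genes of energy metabolism, 4 had folds below the median of all members and 1, at IDH3A, had a fold above it. PDK4, whose product inhibits pyruvate dehydrogenase, had a member 2.87 kb away with the overlapping direct repeat and an estradiol fold of 7.75. CPT1A and CPT1B encode the enzymes that let fatty acids into mitochondria. Their members had estradiol folds of 8.42 and 7.50. The member of CPT1A lay 0.39 kb from the TSS, and that of CPT1B lay closer to CHKB. CYCS, the cytochrome c gene, had an intronic member 0.587 kb from the TSS with a fold of 8.72. IDH3A, which encodes a subunit of an enzyme of the citric acid cycle, had an intronic member 0.189 kb from the TSS with the extended half-site and folds of 13.7 with estradiol and 6.31 with LY500307. It was the one of the 5 with an LY500307 region, and none had a vehicle region. Among nuclear receptor genes, PPARD had an intronic member 0.122 kb from the TSS with an estradiol fold of 3.69 and no other region. The promoter of the rule ended 100 bp downstream of a TSS, so members as near as those of CPT1A, CYCS, IDH3A and PPARD counted as distal.

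By position, 54.2% of members (52.5 to 55.8) lay within a protein-coding gene and the rest between genes, at a median of 24.2 kb from a TSS. All distal regions gave 54.5% and 22.8 kb. Median GC content of the window was 51.7% and median region width 323 bp. A region with an ERE of 1 or no mismatch lay within 10 kb of 13% of members (11.9 to 14.1), against 11.5% (11.1 to 12) of all distal regions. Members within and between genes had median folds of 10.5 and 10.7.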

How the data were processed

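ChIP-seq of Flag-tagged ER-beta was analysed from 3 deposited lists of enriched regions, each named in the labels of the 4 ChIP libraries that share a treatment. MACS2 2.1.1.20160309, Bowtie2 2.2.6, DiffBind and hg38 are named, without their roles, per the submitters' processing notes. Whether all libraries were pooled is not given in the sources used here. In the deposited lists the fold is the authors' ratio of signal over background at the summit. The deposited -log10 q comes from the authors' peak caller, and the authors' score, a display value, was not used. Read depth is unknown, so precision is given by 95% Wilson intervals on shares.

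Chromosomes 1 to 22, X and Y were used (2905 of 2911 vehicle, 26861 of 26896 estradiol, 10045 of 10059 LY500307). TSSs, exons and introns were those of protein-coding transcripts in GENCODE 44. Motifs were read in hg38 within 100 bp of each summit and in windows 2000 bp to either side, and regions overlapping by 1 bp or more were called shared. The rule for named regions took the 10 members of highest estradiol -log10 q. It also took the 5 highest in no other list, with vehicle, with a direct pair, with an inverted or everted pair up to 5 bases apart, and with TCAAGGTCA, the 5 with the most half-sites, and the highest member of each listed gene. Members and lists were chosen with earlier results of these data known. Alternatives were other windows, mismatch limits, annotations, thresholds and overlap rules. Computations used pandas 2.3.3, numpy 2.4.6, scipy 1.17.1 and matplotlib 3.10.9 under Python 3.11.15. Tested on simulated data, the pair search found 100% of pairs implanted in 2000 windows. Single libraries, inputs and DiffBind comparisons were not analysed here.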

Additional observations from a re-analysis of the deposited data

How the results depend on the processing

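Of 54 alternatives computed over 6 results, 35 stayed within the stated interval or, for the number of members, within 1.5 times, and 19 moved. The cause was not tested. The 35 include alternatives that changed the control window alone, which could not move, since the summit share does not depend on that window. With EREs set aside at 1 or no mismatch there were 6704 members, of which 35.4% overlapped LY500307, 7.32% overlapped vehicle and 3.94% held TCAAGGTCA. With EREs set aside at 3 or fewer mismatches there were 620 members, and these shares were 23.2%, 4.68% and 1.94%, with 22.3% holding 2 or more half-sites. With 50 bp on each side of the summit 17.7% of members held 2 or more. With 50% of each region covered, 28.4% of members overlapped LY500307 and 3.10% vehicle. The share of distal windows with a half-site was 32.8% within 50 bp, 47.0% and 27.9% under the lower and higher mismatch limits, 44% with promoters and exons of all annotated genes, 47.5% with promoters of 2500 bp on both sides, 43.1% at a -log10 q of 5 or more and 43.2% at a fold of 5 or more. The control windows were at 6.91% to 14.9% in these settings. Leaving out half-sites in masked repeats was not run, since the genome used here is not masked; leaving out half-sites in the repeat context was chosen after seeing the data in its place and left 3457 members. Without replicate lists, counting error is the whole error given. No paired analysis was possible because each treatment has a single list and no result comes from a test.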

Other observations

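Elements of other factors were also counted in the members' windows, on both strands, beside the control windows that met the same sequence rule. Windows with the repeat context were kept in all sets. GGAATG, the core of the TEAD element, was in 19.3% of members (18.1 to 20.7), against 9.28% downstream and 9.78% upstream, and in 16.3% of all estradiol windows. TGTGGT, the core of the RUNX element, was in 19.2% of members (17.9 to 20.5), against 14.7% and 14.9%, and in 15.6% of all estradiol windows. AGATAA, an element that factors of the GATA family bind, was in 11% of members against 8.68% and 9.16%, with intervals that overlapped those of the upstream windows (8.12 to 10.3 against 10.0 to 12.1 in members), and in 8.24% of all estradiol windows. GGGCGG, an SP1 element, was in 10.7% of members (9.74 to 11.8), against 8.84% downstream (7.79 to 10.0) and 8.78% upstream (7.75 to 9.93). It was in 25.8% of distal regions with none of the 3 elements and 20.8% of all estradiol windows. TGTTTAC, a forkhead element, was in 1.82% of members against 1.82% and 1.38%, and in 1.67% of all estradiol windows. CCGGAAG, an ETS element, was in 1.93% of members (1.53 to 2.44), against 0.832% and 0.729%, and in 2.66% of all estradiol windows. TGACGTCA, the CRE element, was in 0.17% of members, against 0.16% and 0.077%. In distal regions with none of the 3 elements, the TEAD, RUNX, GATA and ETS shares were 15.95%, 15.71%, 8.51% and 2.57%.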
